A study of Homo sapiens with 6 samples.

Results

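The let-7 family was followed through its guide strands, the 5p arms of let-7a, let-7b, let-7c, let-7d, let-7e, let-7f, let-7g and let-7i and of miR-98, taken by name from a table of 1582 miRNAs. All 9 were in the table. Small RNA was sequenced from MDA-MB-231, a human triple-negative breast cancer cell line, in 3 replicates of non-transfected cells (control) and 3 replicates of cells given lentiviral RARαS77A, a phosphorylation-defective mutant of retinoic acid receptor α. The study sequenced these groups to look for miRNAs that change when hypo-phosphorylated RARα is present. No library of cells with an empty vector was analysed here, so delivery of the virus and the mutant receptor cannot be told apart. Nothing read here says that replicates came from separate cultures, so p-values measure only the spread between these libraries, which may be technical.

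The let-7 miRNAs are regarded as tumor suppressors that hold back growth and stemness programs by silencing RAS, MYC, HMGA2 and LIN28 transcripts. A precursor hairpin is cut by Drosha and Dicer into a duplex, of which Argonaute keeps the guide strand (here the 5p arm) while the passenger strand (3p) is usually lost. LIN28, an RNA-binding protein of stem cells and some tumors, blocks this maturation. Target choice rests on the seed, bases 2 to 8 of the guide.

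The mature sequences below, from RefSeq (GRCh38.p14), show what the members share and where they can be confused with each other. They run from 5′ to 3′ with the seed in capitals.
let-7a-5p: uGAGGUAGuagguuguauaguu
let-7b-5p: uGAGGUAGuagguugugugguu
let-7c-5p: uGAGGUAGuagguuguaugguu
let-7d-5p: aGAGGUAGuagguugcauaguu
let-7e-5p: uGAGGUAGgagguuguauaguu
let-7f-5p: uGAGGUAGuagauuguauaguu
let-7g-5p: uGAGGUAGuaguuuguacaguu
let-7i-5p: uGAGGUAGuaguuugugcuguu
miR-98-5p: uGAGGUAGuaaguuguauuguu
All 9 guides are 22 bases long and carry the same seed. Counting positions from 1 at the 5′ end and taking let-7a-5p as reference, let-7c-5p differs by A19G, let-7e-5p by U9G and let-7f-5p by G12A alone. let-7b-5p differs by A17G and A19G, let-7d-5p by U1A and U16C, let-7g-5p by G12U and U18C, miR-98-5p by G11A and A19U, and let-7i-5p by G12U, A17G, U18C and A19U. Of the 36 pairs of guides, 4 were 1 base apart. The authors' treatment of mismatches and of reads with several matches is not stated in the labels or methods. The counts of let-7a-5p, let-7b-5p, let-7c-5p, let-7e-5p and let-7f-5p are therefore uncertain as measures of each of them alone. let-7d-5p, let-7g-5p and miR-98-5p lie 2 bases from let-7a-5p, and let-7i-5p lies 2 bases from let-7g-5p. If 2 mismatches were allowed, these counts are uncertain too. RefSeq held 11 human mature miRNAs with this seed. The other 2, miR-4458 and miR-4500, had no line in the count table.

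The guides come from 12 precursors on 8 chromosomes, and 7 of the guides have 1 precursor each. let-7a-5p has 3. On the plus strand of chromosome 9, let-7a-1 (guide at chr9:94175962-94175983), let-7f-1 (chr9:94176353-94176374) and let-7d (chr9:94178841-94178862) lie close together in introns of the lincRNA gene AL158152.2 in GENCODE 29. On chromosome X, miR-98 (chrX:53556299-53556320) and let-7f-2 (chrX:53557246-53557267) lie in introns of HUWE1, on its strand. let-7a-3 (chr22:46112752-46112773) and let-7b (chr22:46113691-46113712) overlap exons of MIRLET7BHG. Each of the next 3 belongs to a cluster with miR-99 or miR-100 and a miR-125 gene. let-7a-2 (chr11:122146568-122146589) is intronic in MIR100HG, let-7c (chr21:16539838-16539859) is intronic in MIR99AHG, and let-7e (chr19:51692793-51692814) is intronic in SPACA6 and overlaps an exon of the antisense gene SPACA6P-AS. let-7g (chr3:52268336-52268357) lies in an intron of WDR82, and let-7i (chr12:62603691-62603712) in an intron of the lincRNA gene AC048341.1.

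The libraries held between 9019266 and 11338580 counts. miR-21-5p, miR-100-5p, miR-221-3p and miR-222-3p, which are abundant in mesenchymal-like breast cancer lines, summed to between 607184 and 706284 CPM (the count scaled to the library total), whereas the 6 epithelial miRNAs of the miR-200 family and miR-205-5p summed to between 89.7 and 127.6 CPM. miR-21-5p alone took between 44.7% and 51.5% of all counts, so the first sum says little about its other members. Control replicate 3 stood apart from the other controls. Across miRNAs, log2 CPM correlated with r = 0.984 between control replicates 1 and 2, while control replicate 3 reached 0.972 and 0.970 with them and between 0.970 and 0.978 with the RARαS77A libraries. The 9 pluripotent stem cell miRNAs (miR-302, miR-367 and miR-371 to miR-373 strands) summed to 0.185 and 0.0882 CPM in control replicates 1 and 2, but to 425 CPM in control replicate 3 and to 290, 280 and 287 CPM in the RARαS77A libraries. The 5 muscle miRNAs in the table summed to 94.9 CPM in control replicate 1 against 6.19 to 8.20 CPM elsewhere, and miR-375-3p (endocrine cells) reached 76.7 CPM in control replicate 2 against 1.76 to 5.99 CPM elsewhere. Of the other lists, miR-122-5p (liver) lay between 8.73 and 53.6 CPM and the 8 blood cell miRNAs between 23.7 and 45.4 CPM. Their part in the let-7 results was not tested, and values without control replicate 3 are given for the family, its guides and its passengers.

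let-7i-5p, let-7f-5p, let-7g-5p and let-7a-5p made up nearly the whole family. By mean CPM in control cells the order was hsa-let-7i-5p (36500 ± 2199), hsa-let-7f-5p (27974 ± 5118), hsa-let-7g-5p (22107 ± 2385), hsa-let-7a-5p (20963 ± 3935), hsa-let-7b-5p (2547 ± 188), hsa-miR-98-5p (1752 ± 188), hsa-let-7e-5p (1241 ± 229), hsa-let-7d-5p (1209 ± 118) and hsa-let-7c-5p (549.6 ± 102) (SD, n = 3 each). The ranges of let-7f-5p and let-7g-5p, of let-7g-5p and let-7a-5p, and of let-7e-5p and let-7d-5p overlapped. Within each control library let-7f-5p was above let-7g-5p, whereas the order of the other 2 pairs varied between libraries. The other neighbours did not overlap. In RARαS77A cells the order was the same down to let-7a-5p (12192 ± 1988), but let-7e-5p (1227 ± 180) stood next, ahead of let-7b-5p (1140 ± 74.0), whose range it overlapped, above miR-98-5p (944 ± 119), let-7d-5p (615.8 ± 96.6) and let-7c-5p (339 ± 51.7) (SD, n = 3 each). The ranges of let-7i-5p (30291 ± 1489) and let-7f-5p (27257 ± 3649) also overlapped there (SD, n = 3 each). Among all miRNAs let-7i-5p had rank 3 in each control library and rank 3 or 4 in the RARαS77A libraries. The members have the same length, but ligation preferences of small RNA kits differ between sequences, so levels of different members are less comparable than levels of 1 member across libraries.

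The family as a whole took a smaller part of the reads in RARαS77A cells. The 9 guides made up 10.3%, 11.1% and 13.01% of all counts in the control libraries and 7.97%, 9.59% and 9.31% in the RARαS77A libraries. The highest RARαS77A library lay below the lowest control library. The means were 11.5% ± 1.39 and 8.96% ± 0.867 (SD, n = 3 each), a difference of -0.36 on the log2 scale against a pooled SD of 0.16. No library's 95% Wilson interval, which covers counting error only, was wider than 0.0439 percentage points. Without control replicate 3, which had the highest share, the control mean was 10.7% and the log2 difference -0.26. This is a share of a fixed total, in which the 5 most abundant miRNAs (miR-21-5p, miR-100-5p, let-7i-5p, let-7f-5p and miR-30a-5p) took between 68.4% and 71.5% of the counts in control and between 74.2% and 77.1% in RARαS77A libraries. With library totals multiplied by edgeR's TMM factors, which set the bulk of miRNAs equal and averaged 1.22 for control and 0.820 for RARαS77A libraries, the log2 difference of the family was 0.22 in the other direction.

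**Figure D1:**
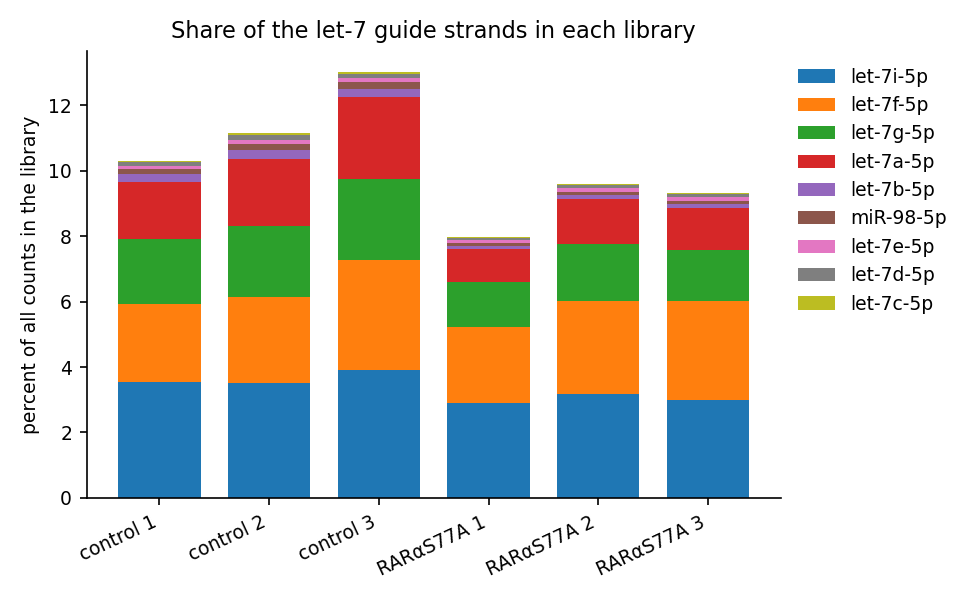
Stacked bars give the percent of all counts (y axis) that each of the 9 let-7 guide strands took in each of the 6 libraries (x axis). The 3 RARαS77A bars end between 7.97% and 9.59%, below the control bars at 10.3% to 13.01%, and let-7i-5p, let-7f-5p, let-7g-5p and let-7a-5p fill most of every bar.

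The members moved in different directions. By the quasi-likelihood test of edgeR on TMM-scaled libraries, at a Benjamini-Hochberg adjusted p under 0.05 over the 506 miRNAs tested, let-7e-5p and let-7f-5p rose and let-7b-5p and let-7d-5p fell in RARαS77A cells, and the other 5 guides were not called. Of all miRNAs tested, 23.3% were called higher and 21.1% lower, so 2 of 9 in each direction is near the background. Some miRNAs had nearly the same values as another. In control, miR-24-3p had 5886, 7297 and 6380 normalised CPM and miR-3074-5p had 5871.5, 7276 and 6323. The background shares here and below may therefore hold some reads more than once, which was not tested. By ranges alone, the groups did not overlap for 7 guides in CPM, all lower, where 13.4% of all miRNAs were higher and 48.8% lower without overlap. After TMM 3 guides were higher and 3 lower without overlap, beside 31% and 27.1% of all miRNAs. Scaled to total counts only, no guide was called higher and 6 were called lower (let-7a-5p, let-7b-5p, let-7c-5p, let-7d-5p, let-7g-5p and miR-98-5p), where the background was 10.1% higher and 42.1% lower. At an unadjusted p under 0.05, edgeR with total counts gave 0 higher and 7 lower guides, and DESeq2 with its own size factors called 3 higher and 3 lower. The share of all miRNAs was not counted for these settings or for the fits below that leave out libraries, so their counts have no background. The median log2 fold change of the 9 guides was -0.11 after TMM and -0.70 under total counts, beside 0.06 and -0.51 for all miRNAs tested. Without control replicate 3, the numbers called were 2 higher and 2 lower after TMM and 0 and 6 under total counts. With control replicate 3 as the only control, they were 1 higher and 4 lower after TMM. In every comparison with this 1 control the spread came from the RARαS77A libraries alone, and the lone control was assumed to vary like them.

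let-7b-5p showed the clearest decrease. It had 2393, 2757 and 2492 CPM in the control libraries and 1057, 1201 and 1161 CPM in the RARαS77A libraries. Every RARαS77A library held less than every control library, and the SDs were small against the gap. After TMM its mean normalised CPM was 2084 ± 36.8 in control and 1390 ± 82.3 in RARαS77A (SD, n = 3 each). That is -0.58 on the log2 scale (standard error 0.08, adjusted p = 0.00105, edgeR). Under total counts the log2 fold change was -1.16 (adjusted p = 0.000124, edgeR). let-7d-5p followed with 1078, 1307 and 1244 CPM in control and 505, 679 and 664 CPM in RARαS77A libraries, again with no overlap. Its log2 fold change was -0.40 after TMM (standard error 0.12, adjusted p = 0.0311, edgeR) and -0.97 under total counts (adjusted p = 0.00114, edgeR). The values after TMM were -0.65 for let-7b-5p and -0.43 for let-7d-5p without control replicate 3, and both calls held. Under upper quartile scaling let-7d-5p was at -0.20 and lost its call (adjusted p = 0.224, edgeR).

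let-7f-5p and let-7e-5p were the members whose CPM overlapped between the groups. let-7f-5p had 23794, 26444 and 33682 CPM in control and 23165, 28436 and 30171 CPM in RARαS77A libraries, with neither group above the other. Its log2 fold change was -0.04 under total counts (adjusted p = 0.859, edgeR). After TMM the libraries were at 20618, 20381 and 27753 normalised CPM in control and 28565, 34765 and 36368 in RARαS77A, which no longer overlapped, and the log2 difference was 0.54 (standard error 0.17, adjusted p = 0.0326, edgeR). This call was lost without RARαS77A replicate 1, 2 or 3 (adjusted p between 0.0525 and 0.0861, edgeR), where the log2 fold change was 0.57, 0.52 and 0.47 on fewer libraries. It was 0.64 without control replicate 3 and 0.29 against that library alone. let-7e-5p had 976, 1370 and 1377 CPM in control and 1021, 1357 and 1303 CPM in RARαS77A libraries, which also overlapped. Its log2 fold change was -0.02 under total counts (adjusted p = 0.932, edgeR) and 0.56 after TMM (standard error 0.15, adjusted p = 0.0169, edgeR), or 0.59 without control replicate 3.

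The remaining 5 guides were not called after TMM. let-7a-5p, the family's best studied member, fell from 17223, 20597 and 25068 CPM in control to 9957, 13760 and 12860 CPM under total counts (log2 fold change -0.78, adjusted p = 0.00795, edgeR), but had a log2 fold change of -0.21 after TMM (adjusted p = 0.352, edgeR). Its log2 fold change after TMM was -0.11 without control replicate 3 and -0.45 against that library alone. With no filter on low counts let-7a-5p was called lower after TMM (-0.40, adjusted p = 0.00468, edgeR). miR-98-5p, at 1593, 1703 and 1960 CPM in control and 807, 1024 and 1001 CPM in RARαS77A libraries, was at -0.89 under total counts (adjusted p = 0.00112, edgeR) and at -0.32 after TMM (adjusted p = 0.0676, edgeR). It was called lower after TMM without control replicate 1 or 2, with no filter on low counts, and by DESeq2 (-0.37, adjusted p = 0.00805). let-7c-5p lay at -0.70 under total counts (adjusted p = 0.0111, edgeR) and -0.11 after TMM. let-7g-5p changed sign between scalings, from -0.51 under total counts (adjusted p = 0.0118, edgeR) to 0.07 after TMM (adjusted p = 0.683, edgeR). let-7i-5p, the most abundant member, was at -0.27 under total counts and 0.30 after TMM and was called under neither (adjusted p = 0.0711 and 0.0728, edgeR), although its 35371, 35095 and 39034 CPM in control all lay above its 28934, 31884 and 30056 CPM in RARαS77A libraries. After TMM its groups were again apart, with RARαS77A higher, and DESeq2 (0.26, adjusted p = 0.0475) and upper quartile scaling (0.52, adjusted p = 0.0132, edgeR) called it higher.

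**Figure D2:**
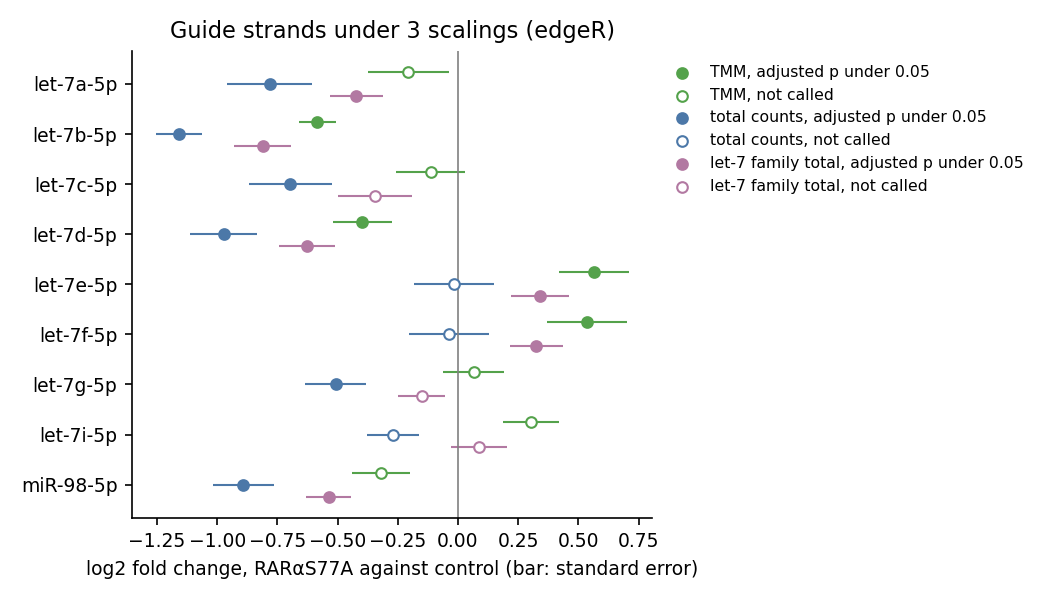
Points give the log2 fold change (x axis) of each guide strand (y axis) in RARαS77A against control cells under TMM, total counts and the let-7 family total, with bars for the standard error from edgeR. Filled points have an adjusted p under 0.05. let-7e-5p and let-7f-5p lie furthest to the right and let-7b-5p furthest to the left under each scaling.

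Relative to each other, the members' order of change does not depend on the scaling, so the composition of the family was compared next. Within the 9 guides, let-7f-5p went from 23.1%, 23.7% and 25.9% of the family in control to 29.1%, 29.7% and 32.4% in RARαS77A libraries. let-7a-5p went the other way, from 16.7%, 18.5% and 19.3% to 12.5%, 14.4% and 13.8%. Neither pair of groups overlapped, and no 95% Wilson interval of a share in 1 library was wider than 0.214 percentage points. let-7i-5p, at 34.4%, 31.5% and 29.99% against 36.3%, 33.3% and 32.3%, overlapped and was the largest member in each library except RARαS77A replicate 3, where let-7f-5p was just above it. let-7g-5p held 19.3% ± 0.249 of the family in control and 17.4% ± 0.638 with RARαS77A (SD, n = 3 each). Among the minor members, let-7b-5p went from 2.24% ± 0.289 to 1.28% ± 0.0449, miR-98-5p from 1.53% ± 0.0209 to 1.05% ± 0.0337, let-7d-5p from 1.06% ± 0.109 to 0.685% ± 0.0446 and let-7c-5p from 0.480% ± 0.0893 to 0.378% ± 0.0318, while let-7e-5p went from 1.08% ± 0.142 to 1.37% ± 0.0730 (SD, n = 3 each). For 8 of the 9 guides the groups did not overlap, 2 being higher and 6 lower (two-sided exact permutation test on the shares, p = 0.1 for each, the smallest that 3 against 3 libraries allow). The 9 shares are parts of the same total, so a gain by let-7f-5p lowers the others. These separations are therefore not independent. Without control replicate 3 the control means were 23.4% for let-7f-5p, 17.6% for let-7a-5p, 2.40% for let-7b-5p and 1.09% for let-7e-5p. Measured in the same way against the family total, 22.5% of all 506 miRNAs were higher and 33.6% lower without overlap.

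**Figure D3:**
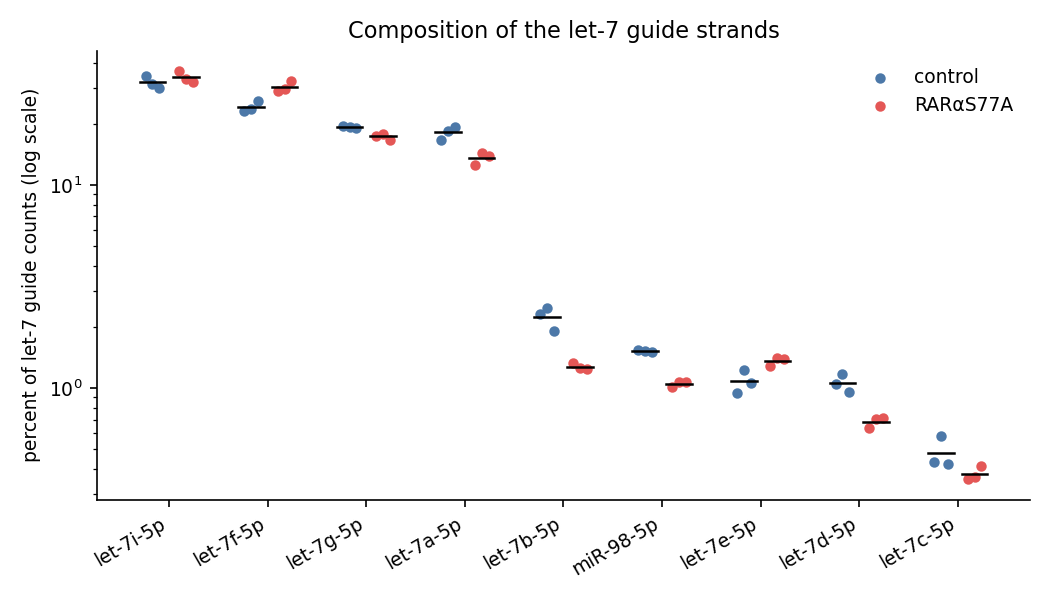
Each point is 1 library, and its height (log scale) is the percent of all let-7 guide counts taken by the guide on the x axis. Black lines are group means of 3 libraries. The groups are apart for every guide except let-7i-5p, with let-7f-5p and let-7e-5p higher in RARαS77A.

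The same comparison in edgeR, with the library size set to the family total, called let-7e-5p and let-7f-5p higher and let-7a-5p, let-7b-5p, let-7d-5p and miR-98-5p lower. The background in this fit was 16.8% higher and 25.9% lower. The log2 fold changes relative to the family were -0.81 for let-7b-5p (standard error 0.12, adjusted p = 0.000997, edgeR), -0.63 for let-7d-5p (adjusted p = 0.00351, edgeR), -0.54 for miR-98-5p (adjusted p = 0.00246, edgeR) and -0.42 for let-7a-5p (adjusted p = 0.0153, edgeR). The increases were smaller and less certain, with 0.34 for let-7e-5p (standard error 0.12, adjusted p = 0.0491, edgeR) and 0.33 for let-7f-5p (standard error 0.11, adjusted p = 0.0413, edgeR). let-7e-5p kept this call only without control replicate 2 among the 6 libraries left out in turn, and let-7f-5p only without control replicate 3. let-7a-5p lost its call without RARαS77A replicate 1 (adjusted p = 0.0591, edgeR). let-7b-5p, let-7d-5p and miR-98-5p kept theirs under each alternative tried. let-7c-5p (-0.35, adjusted p = 0.0981, edgeR) was called lower only without control replicate 3, and let-7g-5p and let-7i-5p were at -0.15 and 0.09 without a call.

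Of 4 ratios between guides of neighbouring precursors, the 2 with let-7f-5p differed between the groups without overlap and the other 2 overlapped. These pairs were chosen for their position after their values had been seen, so their p-values do not allow for that choice. The share of other pairs of miRNAs without overlap was not counted. Against the family total, 22.5% of all miRNAs tested were higher and 33.6% lower without overlap. The ratio of let-7f-5p to let-7a-5p, which share the chromosome 9 cluster and differ by 1 base, was 1.38, 1.28 and 1.34 in control and 2.33, 2.07 and 2.35 in RARαS77A libraries. Control replicate 3 lay with the other controls in this ratio. let-7f-5p to miR-98-5p, which share the chromosome X cluster, went from 14.9, 15.5 and 17.2 to 28.7, 27.8 and 30.1. let-7d-5p to let-7a-5p, also neighbours on chromosome 9, overlapped between groups, with 0.0626, 0.0634 and 0.0496 in control and 0.0507, 0.0493 and 0.0516 in RARαS77A libraries. So did let-7b-5p to let-7a-5p (0.139, 0.134 and 0.0994 against 0.106, 0.0873 and 0.0903). In the last 2 ratios control replicate 3 lay with the RARαS77A libraries. The exact permutation p was 0.1 for each of the first 2 ratios, 0.3 for let-7d-5p to let-7a-5p and 0.2 for let-7b-5p to let-7a-5p (two-sided). As let-7a-5p and let-7f-5p have several precursors each, these ratios do not follow a single locus.

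Most passenger strands carry the name of their precursor and can separate some loci that share a guide. let-7a-3p comes from both let-7a-1 and let-7a-3 and does not separate these. The table held 11 passenger strands. Together they numbered 4.37, 4.71 and 3.61 per 1000 guide counts in control and 2.71, 2.57 and 2.68 in RARαS77A libraries, without overlap. The control mean was 4.54 per 1000 without control replicate 3. Most of these counts were let-7d-3p, such as 3173 of 4862 in control replicate 1 and 1483 of 2093 in RARαS77A replicate 1. The ratio of let-7d-3p to let-7d-5p did not fall (log2 change 0.10), so the sum says little about the other passengers. let-7c-3p (0 to 5 counts per library) and miR-98-3p (3 to 11 counts) did not pass edgeR's filter on low counts. Of the other 9, edgeR after TMM called 5 lower (let-7a-3p, let-7b-3p, let-7d-3p, let-7f-2-3p and let-7i-3p) and 0 higher, beside 21.1% lower and 23.3% higher of all miRNAs and 49 lower and 40 higher of the 213 3p strands tested. Of the 9, 0 were higher at an unadjusted p under 0.05 or by DESeq2. The median log2 fold change of the 9 was -0.42 after TMM, beside -0.07 for all 3p strands tested, and -1.01 under total counts, beside -0.64. Under total counts 7 were called lower, beside 42.1% of all miRNAs and 97 of the 213 3p strands. Without control replicate 3, 5 were called lower after TMM, and with it as the only control 3.

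The sequence of let-7f-2-3p was missing from the source used, so how close it is to other passengers was not compared. Mismatch rules are not stated, so reads may also be shared between passengers. Sequences of other passenger strands on which the next results turn are given with bases 2 to 8 in capitals (RefSeq, GRCh38.p14).
let-7a-3p: cUAUACAAucuacugucuuuc
let-7a-2-3p: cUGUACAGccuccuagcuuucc
let-7d-3p: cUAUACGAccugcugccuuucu
let-7e-3p: cUAUACGGccuccuagcuuucc
let-7f-1-3p: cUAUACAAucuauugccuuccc
let-7i-3p: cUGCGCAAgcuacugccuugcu
let-7a-3p, which comes from let-7a-1 and let-7a-3, fell most clearly, from 813, 862 and 726 counts in control to 191, 266 and 276 counts in RARαS77A libraries (75.2, 76.0 and 80.5 against 19.7, 25.9 and 27.6 CPM). Its log2 fold change was -1.09 after TMM (standard error 0.17, adjusted p = 0.00202, edgeR). let-7a-2-3p, from the chromosome 11 precursor, went from 347, 545 and 284 to 193, 172 and 188 counts, with -0.42 after TMM (adjusted p = 0.115, edgeR) and -1.01 under total counts (adjusted p = 0.00767, edgeR). let-7f-2-3p, from HUWE1 on chromosome X, had 38, 59 and 45 counts in control and 7, 9 and 16 in RARαS77A libraries, or -1.51 on the log2 scale after TMM (standard error 0.32, adjusted p = 0.00710, edgeR). let-7f-1-3p, from chromosome 9, had 43, 68 and 45 counts against 38, 31 and 45, and was at 0.19 after TMM (adjusted p = 0.487, edgeR) and -0.39 under total counts. The ratio of let-7f-1-3p to let-7f-2-3p was 1.13, 1.15 and 1.00 in control and 5.43, 3.44 and 2.81 in RARαS77A libraries. let-7i-3p, from 117, 180 and 121 to 44, 44 and 55 counts, was at -0.90 after TMM (adjusted p = 0.00669, edgeR). let-7b-3p (58, 122 and 62 against 20, 29 and 28 counts) was at -0.99. Its call was lost without control replicate 2 or RARαS77A replicate 1 and under upper quartile scaling (-0.80, adjusted p = 0.0626, edgeR). let-7d-3p, the most abundant passenger, had 3173, 3684 and 2724 counts against 1483, 1802 and 1727, and its log2 fold change of -0.30 lost its call without control replicate 1 or 2, with a replicate block (adjusted p = 0.0724, edgeR) and under upper quartile scaling (-0.09).

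Whether passengers changed more than the guides of the same family member was tested next. The measure was the ratio of the 3p to the 5p count within a library, which no scaling affects. let-7a-5p and let-7f-5p have several precursors each, so ratios to them do not compare the arms of a single precursor. Of the 140 pairs of arms in the table with a mean of at least 10 counts in each arm, 9 belonged to let-7 precursors. By limma with a trend and Benjamini-Hochberg adjustment over all 140, 4 let-7 ratios were lower in RARαS77A cells and 0 higher (0 also at an unadjusted p under 0.05), beside 31.4% lower and 22.9% higher of all pairs. These pairs are not all independent. The ratios of miR-423 and miR-3184 changed by -1.43 and 1.43 on arms with nearly the same values. In control replicate 1, miR-423-3p had 3181 normalised CPM and miR-3184-5p 3172. The median log2 change of the 9 ratios was -0.36, beside -0.17 for all 140. let-7f-2-3p changed most, from 0.150, 0.198 and 0.150 per 1000 let-7f-5p counts in control to 0.0334, 0.0325 and 0.0546 (log2 change -2.08, standard error 0.32, adjusted p = 0.000561, limma). let-7i-3p went from 0.307, 0.454 and 0.345 per 1000 let-7i-5p counts to 0.159, 0.136 and 0.184 (-1.20, adjusted p = 0.00198, limma). let-7e-3p went from 23.6, 26.03 and 16.9 per 1000 let-7e-5p counts to 10.8, 11.9 and 11.5 (-0.94, adjusted p = 0.00243, limma). let-7a-3p went from 4.37, 3.69 and 3.21 per 1000 let-7a-5p counts to 1.98, 1.89 and 2.15 (-0.90, standard error 0.15, adjusted p = 0.000762, limma). In these 4 ratios the groups did not overlap, which held for 35% of all pairs in the lower and 27.1% in the higher direction.

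The other 5 ratios were not called. let-7d-3p stood at 273, 249 and 243 per 1000 let-7d-5p counts in control and 303, 259 and 260 in RARαS77A libraries (log2 change 0.10, adjusted p = 0.523, limma), and the groups overlapped. It was far above the ratio of any other let-7 passenger. let-7b-3p (-0.36), let-7f-1-3p (-0.35), let-7a-2-3p (-0.21) and let-7g-3p (0.48, on 6 to 15 counts of let-7g-3p per library) overlapped between groups. Without control replicate 3, 4 ratios were again called lower. Against control replicate 3 alone, where the control arm gives no spread, the log2 change was -0.57 for let-7e-3p and -1.12 for let-7i-3p and 2 ratios were called.

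**Figure D4:**
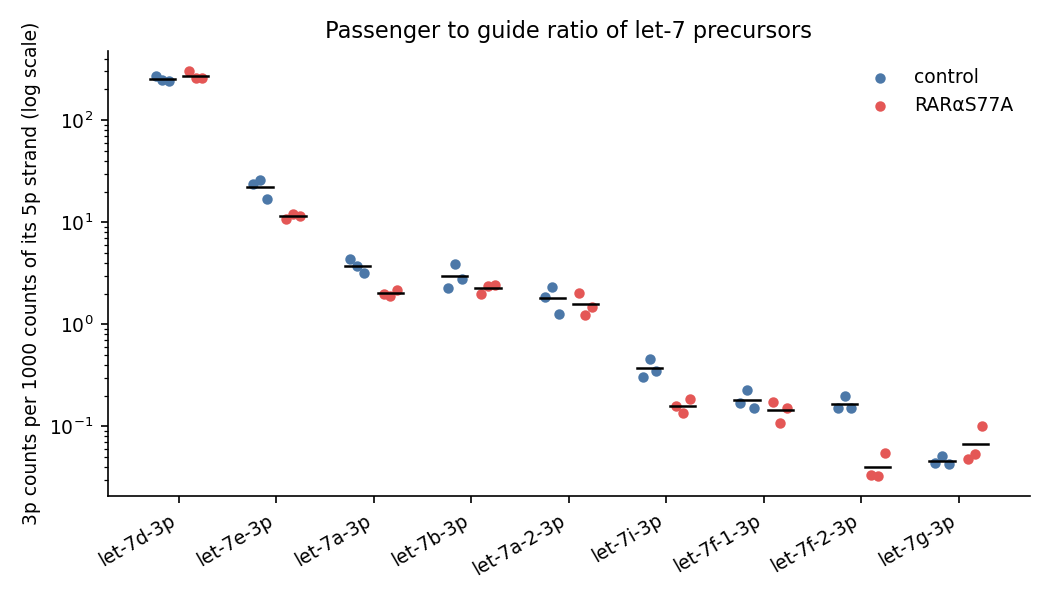
Each point is 1 library, and its height (log scale) is the number of passenger (3p) counts per 1000 counts of the guide (5p) of the same family member. Black lines are group means of 3 libraries. The RARαS77A points lie below all control points for let-7e-3p, let-7a-3p, let-7i-3p and let-7f-2-3p, whereas the groups overlap for let-7d-3p.

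Of the miRNAs encoded beside let-7a-2, let-7c and let-7e, 3 guides rose and 1 fell of 5 tested after TMM, beside 23.3% higher and 21.1% lower of all miRNAs. After TMM, miR-100-5p (log2 fold change 1.01, adjusted p = 0.00308, edgeR), miR-99a-5p (0.98, adjusted p = 0.000249, edgeR) and miR-99b-5p (0.63, adjusted p = 0.00165, edgeR) rose, miR-125b-5p fell (-0.79, adjusted p = 0.00171, edgeR), and miR-125a-5p was at -0.52 (adjusted p = 0.109, edgeR). Under total counts miR-99a-5p alone was called higher and miR-125a-5p and miR-125b-5p lower, beside 10.1% higher and 42.1% lower of all miRNAs. let-7e-5p, at 0.56, lay close to miR-99b-5p of its own cluster but far from miR-125a-5p (-0.52) of that cluster. let-7c-5p, at -0.11, lay between miR-99a-5p and miR-125b-5p. As miR-125b-5p has several precursors, it does not follow a single locus. miR-125b-1-3p (-0.99, adjusted p = 0.000443, edgeR) and miR-100-3p (-0.88, adjusted p = 0.0293, edgeR) were the 2 partner passengers called lower of 5 tested after TMM, beside 49 of 213 for all 3p strands.

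The miRNAs whose counts ran most parallel to the summed let-7 guides over the 6 libraries were miR-182-5p, miR-335-3p, miR-28-3p, miR-26a-5p and miR-769-5p. Likeness was the root mean square difference of log2 counts from the family sum after removing the mean difference, which no scaling affects, and was 0.104, 0.112, 0.122, 0.125 and 0.127, respectively, among 122 miRNAs with a mean of at least 1000 counts. By the same measure the members themselves lay between 0.0824 (let-7g-5p) and 0.418 (let-7b-5p) from their own sum.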

How the data were processed

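The deposited counts give, for 1582 miRNAs (1498 named and 84 predicted), the raw reads of each of 6 small RNA libraries (NEBNext kit, Illumina Hiseq). The deposited TPM is the same count scaled to the column total, without a length term (largest difference 4.74e-05), and served only for this check. Bowtie is named in the submitters' processing notes. For the reference, counting and mismatch rules: not given in the sources used here.

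Differential expression was tested with edgeR 4.0.16 (R 4.3.3) on all miRNAs passing filterByExpr (minimum count 10), with TMM factors. Further fits used total counts or the summed guides as library size. Standard errors were obtained by dividing each log2 fold change by √F. Arm ratios, log2((3p + 0.5)/(5p + 0.5)), were tested with limma 3.58.1. Both were tested on simulated data with independent counts, which held no outlying control library and no reads shared between miRNAs. Alternatives are described in the closing section (DESeq2 1.42.0 among them). A count of 0 allows up to 3 counts, at most 0.333 CPM in any library. Wilson intervals are from scipy 1.17.1 and loci from GENCODE 29. Named miRNAs were all guides and passengers, other miRNAs with the seed, cluster partners and the 5 most similar profiles. Members and lists were chosen with earlier results of these data known. Replicate numbers were not used to pair the libraries in the main fits (correlation of deviations 0.0444, 0.0900 and 0.0284). Whether libraries of the same number shared a batch was not tested.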

Additional observations from a re-analysis of the deposited data

How the results depend on the processing

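The calls of the guides depended on the scaling. The 2 guides called higher became 0 under total counts and 0 when the top 5 miRNAs, let-7i-5p and let-7f-5p among them, were taken out of those totals. The 2 called lower became 6 and 4 under these settings, 1 under upper quartile scaling and 4 with no filter. let-7e-5p (-0.0168), let-7f-5p (-0.0374) and let-7g-5p (-0.508) changed sign under total counts, as did let-7i-5p (-0.269), which was called under neither. Between these scalings the median of all miRNAs moved from 0.06 to -0.51. Without single libraries between 1 and 2 guides were higher, 1 without RARαS77A replicate 1, 2 or 3. Of the passengers, 5 were lower, but 3 under upper quartile scaling and between 3 and 5 without single libraries, 3 without control replicate 2. The family's log2 difference of -0.36 was 0.218 with TMM factors and between -0.432 and -0.263 without single libraries. It was -0.0168 with the top 5 taken out of the total. The family sum still held let-7i-5p and let-7f-5p there, so this value is not a share of that total. Relative to the family total, 2 guides were higher, but 1 with DESeq2 or no filter and between 0 and 1 without single libraries, 1 only without control replicate 2 or 3. Where no cause is given by the construction of a setting, the cause was not tested.

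Settings chosen after seeing the data compared RARαS77A with control replicate 3 alone, so that only the RARαS77A libraries gave the spread. Guides were then 1 higher and 4 lower, passengers 3 lower, guides relative to the family 0 higher, arm ratios 2 lower, and the family's log2 difference -0.544. With total counts and control replicate 3 left out, 0 guides were higher and 6 lower, and let-7g-5p was at -0.420. The replicate block gave 2 guides higher and 2 lower and 4 passengers lower, so that let-7d-3p lost its call (adjusted p = 0.0724, edgeR). With the block 4 arm ratios were lower, and 2 guides were higher and 4 lower relative to the family. It changed no other call.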
